A study of Homo sapiens with 12 samples.

Results

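The comparison concerned genes whose response to IFNα differed between the 2 head and neck squamous cell carcinoma (HNSCC) line sets of the study, with both IFNα doses pooled. Among 19944 genes tested of 60099 listed, 137 genes passed an adjusted p-value of 0.05 with a response that differed 2-fold or more, which is 0.687% of the genes tested. Of these, 76 genes (0.381% of the genes tested) responded in 1 line set only or in opposite directions, and they are the genes described here. They comprise 30 genes called higher and 15 called lower in line set D-F only, 23 called higher and 7 called lower in line set A-C only, and 1 locus called in opposite directions. Another 23 of the 137 genes rose in both line sets by unequal amounts, and 38 were called in neither line set on their own.

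The 12 RNA samples came from 2 established HNSCC cell lines, Cal27 and HN30, both of epithelial tumour origin. Letters A and D had no IFNα, letters B and E had 20 ng/ml and letters C and F had 200 ng/ml, and all were collected at 24 h with 2 samples per letter. Which of the line sets is Cal27 and which is HN30 was not given in the labels, so they are called A-C and D-F. Each line set is 1 cell line, so a difference between line sets is a difference between 2 lines. The labels do not say whether the 2 samples of a letter were separate cultures, and p-values measure only the spread between these samples, which may be technical.

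IFNα is a type I interferon that binds the IFNAR1 and IFNAR2 receptor on most nucleated cells and activates the kinases JAK1 and TYK2. These phosphorylate STAT proteins, which join IRF9 to form a complex (ISGF3) that binds the interferon-stimulated response element (ISRE) in the promoters of interferon-stimulated genes such as ISG15, the IFIT and OAS families and MX1. Many of the same cells also express NF-κB targets, complement components and genes of HLA class I antigen presentation, which several inflammatory signals can induce.

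Gene counts summed to between 10517448 and 16056734 per sample, and samples of 1 line set correlated at 0.940 to 0.976 while samples of different line sets correlated at 0.678 to 0.717 (30 and 36 pairs, log scale, across genes). Summed TPM (a level scaled for transcript length and depth) of 8 epithelial markers was 2611 to 3274 in A-C and 2422 to 3036 in D-F. Single epithelial markers differed more than the sum. KRT5 was at 914 to 1248 in A-C and 237 to 263 in D-F, and KRT14 at 41.9 to 49.2 and 0 to 0.254. KRT18 went the other way, at 386 to 504 in A-C and 662 to 873 in D-F. The leukocyte markers CD3E, MS4A1 and NKG7 were at 0 in both line sets, and summed TPM of 8 leukocyte markers was 9.15 to 18.9 in A-C and 5.34 to 40.6 in D-F, of which CD68 carried most. Summed TPM of 7 fibroblast markers was 5.55 to 15.4 in A-C and 8.97 to 15.2 in D-F. Summed TPM of 4 endothelial markers was 15.3 to 21.7 in A-C and at most 0.733 in D-F, and CDH5 carried most of it in A-C, where KDR and PECAM1 were at 0. The part of these marker levels in the results was not tested.

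**Figure D1:**
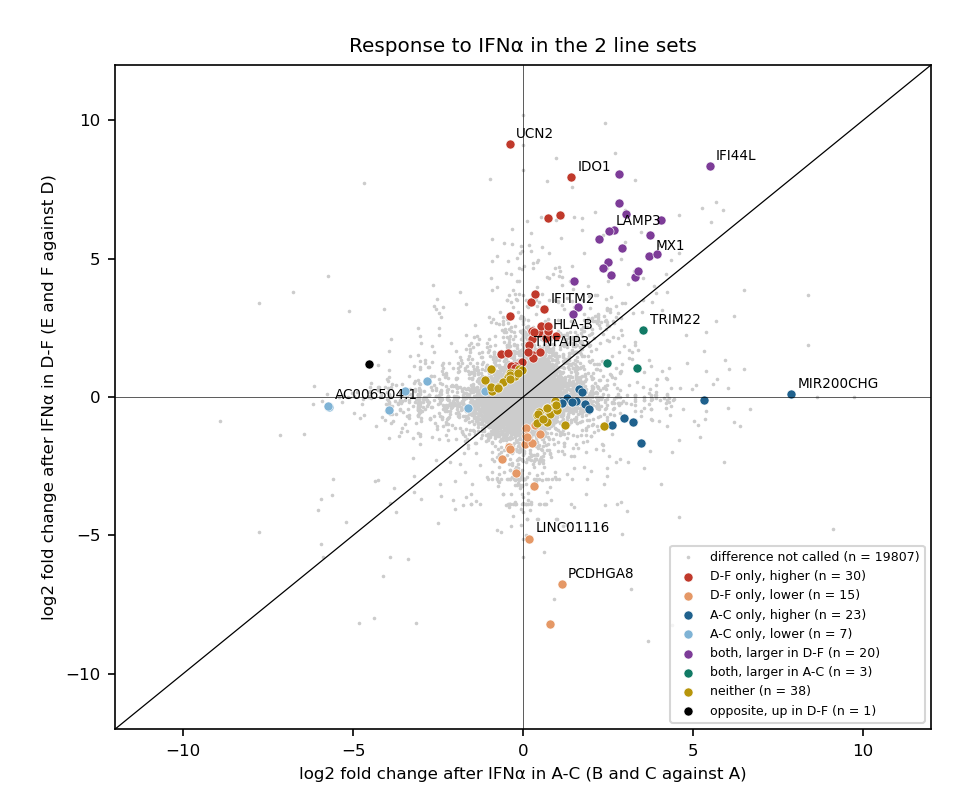
Log2 fold change after IFNα in line set A-C (x axis; samples B and C against A) and in line set D-F (y axis; samples E and F against D) for 19944 genes, from the fit of estimated counts. Grey points are genes whose difference between line sets was not called, coloured points are the 137 called genes by group, and the diagonal marks equal responses. The 30 genes called higher in D-F only lie between -0.66 and 1.40 on the x axis and between 1.04 and 9.13 on the y axis.

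In D-F 321 genes were called higher (1.61% of those tested) and 79 lower (0.396%), 2.01% in all. In A-C 197 genes were called higher (0.988%) and 54 lower (0.271%), 1.26% in all. Both line sets shared 127 genes called higher and 8 called lower. Of 264 genes called in D-F and not in A-C, 45 passed the test of the difference between line sets, or 17.0%. Of 115 genes called in A-C and not in D-F, 30 passed it, or 26.1%. For the remaining genes called in 1 line set, a difference between the line sets was not shown. These are bulk samples, in which fewer responding cells and less RNA per cell cannot be told apart. The signed difference, D-F minus A-C, was above 0 for 76 of the 137 genes (0.381% of those tested), which include the 7 called lower in A-C only, and below 0 for 61 (0.306%), which include the 15 called lower in D-F only.

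The promoters of a few of these genes are shown first, to place the ISRE in genes that rose in both line sets and in genes called higher in D-F only. Promoter windows of RefSeq on GRCh38.p14, from 250 bases before to 50 bases after a listed start, were matched for 10923 of the 19944 genes. An ISRE core was spelled as GAAA, 2 bases of any kind and GAAA, and searched on both strands. It was in at least 1 window of 4.18% of all matched genes. It was in 10 of 14 matched genes that rose in both line sets and more in D-F, in 3 of 16 matched genes called higher in D-F only (CFB, EXOC3L4 and PARP12), and in 0 of 5 called higher in A-C only. The 250 bases before 1 listed start follow, 5′ to 3′ on the gene's strand, with ISRE matches in capitals. They are given for IFIT3 and ISG15 (higher in both) and PARP12 and CFB (higher in D-F only). Each is the first listed start whose window held a match.
IFIT3, chr10:89327747-89327996, plus strand: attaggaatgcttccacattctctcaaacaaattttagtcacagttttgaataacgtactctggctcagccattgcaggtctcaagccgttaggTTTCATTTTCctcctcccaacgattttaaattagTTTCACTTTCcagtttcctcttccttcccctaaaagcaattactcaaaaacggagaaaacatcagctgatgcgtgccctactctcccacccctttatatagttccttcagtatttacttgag
ISG15, chr1:1013247-1013496, plus strand: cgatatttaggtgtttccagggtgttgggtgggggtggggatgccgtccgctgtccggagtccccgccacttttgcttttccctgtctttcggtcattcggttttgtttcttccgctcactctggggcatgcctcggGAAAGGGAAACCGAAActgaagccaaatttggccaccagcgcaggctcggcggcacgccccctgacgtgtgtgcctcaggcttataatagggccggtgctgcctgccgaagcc
PARP12, chr7:140062952-140063201, minus strand: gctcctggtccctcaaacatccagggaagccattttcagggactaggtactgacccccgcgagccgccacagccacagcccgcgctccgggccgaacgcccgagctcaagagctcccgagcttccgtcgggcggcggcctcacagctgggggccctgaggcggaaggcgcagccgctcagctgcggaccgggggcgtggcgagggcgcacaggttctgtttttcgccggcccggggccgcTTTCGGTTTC
CFB, chr6:31945845-31946094, plus strand: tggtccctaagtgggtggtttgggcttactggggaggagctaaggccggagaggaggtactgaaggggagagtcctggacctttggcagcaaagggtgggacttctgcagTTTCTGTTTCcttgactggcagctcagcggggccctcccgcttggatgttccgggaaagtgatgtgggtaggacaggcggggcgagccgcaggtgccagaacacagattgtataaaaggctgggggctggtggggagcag
IFIT3 held 2 matches, ISG15 held 2 that overlap, and PARP12 and CFB held 1 each. A looser κB pattern, spelled as GGGA, 4 bases of any kind and CC, was in 8 of the 16 matched genes called higher in D-F only and in 37.7% of all matched genes. The κB pattern was also in 4 of 8 matched genes called lower in D-F only and in 12 of 27 called in neither line set. It was in 5 of 14 that rose in both and more in D-F, and in 0 of 5 called higher in A-C only. A STAT pattern (GAS), spelled as TTC, 3 bases of any kind and GAA, was in 3 of the 16 (18.8%) and in 8.64% of all matched genes. Both were searched on both strands, and matches of the 3 patterns were counted separately and may overlap. A match describes the letters of the window and does not show that a factor bound there.

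The 30 genes called higher in D-F only had a median log2 fold change of 2.22 in D-F and 0.28 in A-C, against -0.004 and -0.02 over all genes tested. In all 30 every treated sample of D-F lay above both controls, which held for 15.8% of all genes tested, and these values chose the genes. In A-C 4 of the 30 (HLA-B, NLRC5, PARP12 and CD68) passed the adjusted p-value with a change under 2-fold, so the word only refers to the call at 2-fold. On GRCh38.p10, the build of the files, the genes described most fully lie at chr6:31269491-31357188 (HLA-B, minus strand), chr16:56989485-57083531 (NLRC5, plus), chr6:137867188-137883312 (TNFAIP3, plus), chr4:73740506-73743716 (CXCL8, plus) and chr12:52446651-52452126 (KRT6B, minus).

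Antigen presentation genes were among them. HLA-B, a heavy chain of HLA class I molecules, had TPM of 354 and 332 in D, 1399 and 1463 in E and 1782 and 1871 in F, and 346 and 385 in A, 609 and 665 in B and 547 and 388 in C. The untreated samples of the line sets overlapped for HLA-B, and the treated D-F samples were all above the treated A-C samples. The log2 fold change was 2.23 in D-F and 0.69 in A-C, a difference, D-F minus A-C throughout, of 1.54 ± 0.11 (SE, as for every ± value of a difference; edgeR quasi-likelihood test, adjusted p = 0.000529). The gene model of HLA-B overlaps HLA-C, a paralog of similar sequence, so the division of reads between them is uncertain. NLRC5, the transactivator of HLA class I genes, had TPM of 21.0 and 21.7 in D, 84.0 and 75.9 in E and 111 and 105 in F, and 60.4 and 62.8 in A, 88.4 and 71.4 in B and 109 and 94.0 in C. NLRC5 started lower in D than in A and reached the same range with IFNα, and its response differed by 1.47 ± 0.13 on the log2 scale (edgeR adjusted p = 0.00106). CTSS, a lysosomal cysteine protease that processes antigens for HLA class II, rose in D-F from TPM of 1.29 and 1.00 to 7.33 and 6.17 in E and 7.96 and 8.38 in F, against 9.10 and 9.55 in A, 12.7 and 12.7 in B and 14.7 and 12.6 in C.

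Antiviral genes in this group were PARP12 and IFITM2. PARP12, an interferon-induced ADP-ribosyltransferase, had TPM of 39.5 and 40.7 in D, 183 and 164 in E and 220.3 and 202 in F, and 76.2 and 71.7 in A, 142 and 155 in B and 162 and 183 in C. Its A-C value, a log2 fold change of 0.96 (edgeR adjusted p = 0.00012), missed the 2-fold limit, while at 200 ng/ml alone it was called higher in A-C, by 1.04 (edgeR adjusted p = 0.000148). The difference between line sets was 1.25 ± 0.11 (edgeR adjusted p = 0.00106). IFITM2, a membrane protein that restricts virus entry, had TPM of 3.15 and 0.882 in D, 22.1 and 25.8 in E and 26.9 and 32.2 in F, and 68.7 and 70.4 in A, 94.5 and 101 in B and 119 and 98.9 in C. Treated D-F samples stayed below the untreated A samples for IFITM2, although its log2 response was larger in D-F by 2.56 ± 0.32 (edgeR adjusted p = 0.00766). IFITM2 overlaps its paralog IFITM1 on the same strand, so its counts are uncertain.

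The complement genes CFB and C1S rose in D-F. CFB, factor B of the alternative pathway, had TPM of 15.3 and 9.11 in D, 67.2 and 49.3 in E and 71.2 and 77.4 in F, and 74.0 and 76.0 in A, 86.3 and 72.4 in B and 106 and 77.1 in C. The treated samples of both line sets overlapped, and the controls did not. The difference in response was 2.02 ± 0.24 (edgeR adjusted p = 0.00578), and CFB overlaps C2 on the same strand. C1S, the serine protease of the C1 complex, had TPM of 4.62 and 3.62 in D, 20.7 and 15.2 in E and 27.0 and 19.1 in F, and 36.5 and 34.8 in A, 39.5 and 43.3 in B and 52.7 and 67.4 in C. For C1S every D-F sample stayed below every A-C sample, and its response differed by 1.85 ± 0.34 (edgeR adjusted p = 0.0316).

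Genes linked to NF-κB were TNFAIP3 and CXCL8. TNFAIP3, which encodes the NF-κB inhibitor A20, had TPM of 18.0 and 13.3 in D, 41.7 and 42.0 in E and 46.7 and 57.6 in F, and 115 and 121 in A, 132 and 128 in B and 129.8 and 153 in C. CXCL8, the neutrophil chemokine IL-8, had TPM of 26.2 and 23.1 in D, 71.2 and 84.9 in E and 99.8 and 114 in F, and 171 and 192 in A, 173 and 193 in B and 199 and 245 in C. Both were lower in every D-F sample than in any A-C sample, and both responded in D-F without passing the threshold in A-C. The log2 difference in response was 1.46 ± 0.14 for TNFAIP3 (edgeR adjusted p = 0.00181). It was 1.70 ± 0.17 for CXCL8 (edgeR adjusted p = 0.00244). OLR1, a scavenger receptor for oxidised LDL, and GJB2, the gap junction protein connexin 26, lay likewise lower in D-F, with log2 responses of 1.25 and 1.12 there and -0.02 and -0.24 in A-C.

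Epithelial and secreted genes included KRT6B and PAPPA. KRT6B, a keratin of activated and wounded squamous epithelium, had TPM of 6.54 and 6.98 in D, 30.1 and 35.0 in E and 42.9 and 39.8 in F, and 13.9 and 12.3 in A, 15.6 and 13.6 in B and 15.7 and 17.4 in C. KRT6B was lower in D than in A and higher in D-F than in A-C with IFNα, with a difference of 2.11 ± 0.17 (edgeR adjusted p = 0.00104). RARRES3, a phospholipase-like tumour suppressor induced by retinoids, and UNC93B1, the chaperone of endosomal Toll-like receptors, had the same order of samples, with log2 differences of 1.83 and 1.25. PAPPA, a protease of IGF-binding proteins, was high in D-F, with TPM of 29.3 and 28.0 in D against 0.477 and 0.771 in A, and responded in D-F by 1.04 on the log2 scale.

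Several genes were at or under 3 counts in both D samples and detected after IFNα, so that a fold is a lower bound against 3 counts per library. IDO1, the tryptophan-degrading enzyme of immune tolerance, had TPM of 0 and 0 in D, 2.53 and 1.14 in E and 5.14 and 4.02 in F, at least 13.5-fold higher. In A-C it was present without IFNα, with TPM of 1.70 and 0.947 in A, 3.33 and 2.80 in B and 4.94 and 4.77 in C, and its log2 response of 1.40 missed the adjusted threshold (edgeR adjusted p = 0.0658). At 200 ng/ml alone IDO1 was called higher in A-C too, by 1.72 on the log2 scale (edgeR adjusted p = 0.0366). UCN2, the stress peptide urocortin 2, had TPM of 0 and 0 in D, 3.08 and 11.1 in E and 3.29 and 8.66 in F, at least 27.6-fold higher, and 12.5 and 10.9 in A, 8.24 and 9.64 in B and 7.26 and 10.3 in C. The 2 UCN2 samples at each dose in D-F differed by more than 2-fold, and UCN2 overlaps PFKFB4 on the same strand. LMO2, a transcriptional adaptor, was at least 4.80-fold higher, GRIP2, a scaffold protein of glutamate receptors, at least 36.6-fold, CYB5R2, a cytochrome b5 reductase, at least 5.43-fold, and SERPINB9, the inhibitor of granzyme B, at least 4.08-fold. In these 6 genes D held 3 counts or fewer per sample. GRIP2 had TPM of 0.0623 and 0.0968 in A, 0.0388 and 0.128 in B and 0.0412 and 0.235 in C, whereas CYB5R2 and SERPINB9 were higher in A-C at every dose.

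Of the remaining genes of this group, CD68, a lysosomal glycoprotein used as a macrophage marker, had TPM of 6.45 and 5.29 in D, 28.4 and 20.01 in E and 36.1 and 39.6 in F, and 8.15 and 10.1 in A, 14.7 and 13.1 in B and 17.4 and 17.4 in C. Of the other myeloid markers, CD14 had TPM of 0.435 to 2.29 in A-C and 0 to 1.51 in D-F, and LYZ was at 0 but for 0.202 in E1, and their part in the CD68 values was not tested. EGR1, an immediate early transcription factor, differed in response by 1.46 ± 0.27 (edgeR adjusted p = 0.0325). TMEM229B, MIR210HG, EXOC3L4 and FAM229A differed on the log2 scale by 1.86, 2.02, 2.22 and 3.31, in that order. For FAM229A the counts and the TPM disagreed, with TPM of 4.57 and 3.56 in A, 4.12 and 3.69 in D, 8.53 and 7.12 in E and 9.98 and 8.50 in F, and its difference on log2(TPM + 1) was 1.09 (limma adjusted p = 0.0885). PCGF6, a Polycomb subunit, rose in D-F by 1.10 on the log2 scale.

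**Figure D2:**
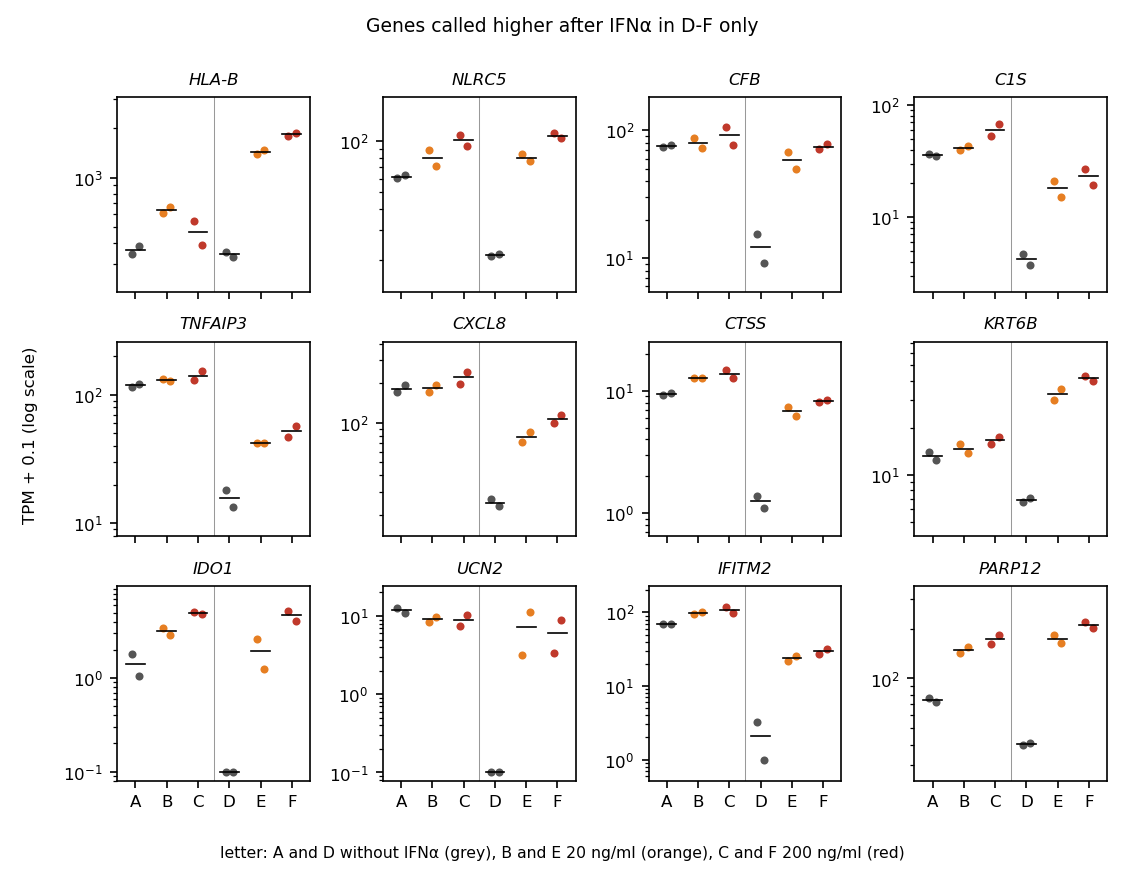
TPM + 0.1 (log scale) of 12 genes called higher after IFNα in D-F only, by sample letter; points are samples (2 per letter), bars are means, grey is untreated, orange 20 ng/ml and red 200 ng/ml. In D-F every treated sample lies above both controls, and in most panels the D controls lie below the A controls.

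Most of these genes were lower in D than in A before treatment. Of the 30, 27 (90.0%) were lower in D than in A, against 49.6% of all genes tested, and 22 (73.3%) by 2-fold or more (edgeR, adjusted p-value within 0.05), against 11.0% of all genes. The median log2 difference between line sets, D-F minus A-C, was -2.05 without IFNα and 0.04 with it. With IFNα 15 of the 30 were within 2-fold between line sets, a smaller share than the 65.8% of all genes tested. Without IFNα 5 of the 30 were within 2-fold, against 65.6% of all genes tested. The levels were thus closer with IFNα than without it, but no closer than those of all genes. Of the others with IFNα, 9 were lower and 6 higher in D-F. The control samples enter both the response and this difference, so the direction in the controls is a description.

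The 20 genes that rose in both line sets but more in D-F were also mostly lower in D than in A without IFNα. Their median log2 fold change was 5.28 in D-F and 2.82 in A-C. Of the 20, 19 (95.0%) were lower in D than in A, against 49.6% of all genes tested. With IFNα 17 (85.0%) were within 2-fold between line sets, against 65.8% of all genes tested. Here too the control samples enter both the response and the difference without IFNα. IFI44L, an interferon-induced protein, had TPM of 4.63 and 3.09 in A, 125 and 114 in B and 142 and 153 in C, and 0.157 and 0.855 in D, 143 and 165 in E and 194 and 177 in F. Its response was larger in D-F by 2.86 ± 0.25 (edgeR adjusted p = 0.00106). ISG15, the ubiquitin-like modifier, had TPM of 86.3 and 129.7 in A, 923 and 924 in B and 825 and 723 in C, and 21.5 and 33.8 in D, 1130.3 and 967 in E and 1367 and 1506 in F. LAMP3, a lysosomal membrane protein, rose in A-C from TPM of 15.2 and 15.5 to 87.0 and 74.0 in B and 125 and 145 in C, and in D-F from 1.03 and 1.46 to 81.4 and 67.3 in E and 94.8 and 93.9 in F. The treated samples of the line sets overlapped for IFI44L and LAMP3, and the D controls of all 3 genes lay below the A controls. CXCL10, the chemokine that attracts T cells, was at 3 counts or fewer in D and at least 28.9-fold higher with IFNα, and BATF2, a bZIP transcription factor, at least 74.0-fold. IFITM1 had 1 sample apart in F, with TPM of 635 and 162, and its difference was 3.58 ± 0.73 (edgeR adjusted p = 0.0474). The others were OAS1, USP18, IFIT1, MX1, UBA7, IFITM3, IFIT3, IFI6, OASL, OAS2, RTP4, SLC15A3, GMPR and LINC01285.

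Only 3 genes rose in both line sets and more in A-C. TRIM22, an antiviral E3 ligase, had TPM of 13.9 and 15.7 in A, 125 and 129.6 in B and 174 and 195 in C, and 61.3 and 53.1 in D, 319 and 312 in E and 413 and 383 in F. It was higher in D-F at every dose, and its response was larger in A-C, with a difference of -1.13 ± 0.15 (edgeR adjusted p = 0.00921). The others were ENO1P1, a pseudogene that can share reads with ENO1, and 1 assembled locus.

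**Figure D3:**
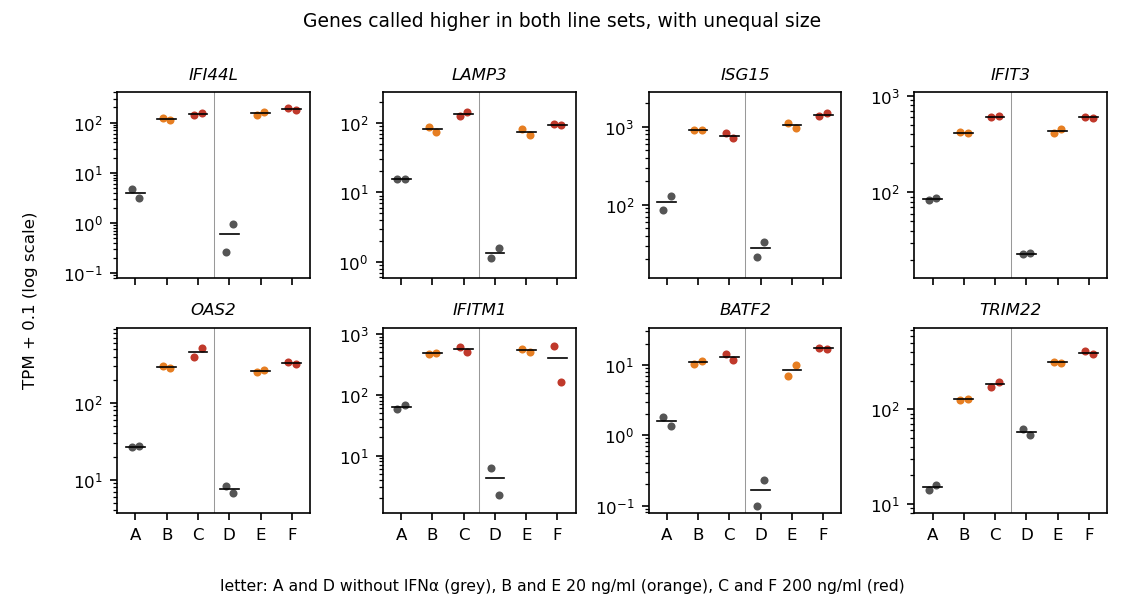
TPM + 0.1 (log scale) of 8 genes called higher in both line sets with unequal size, by sample letter; points are samples and bars are means, coloured by dose. For IFI44L, LAMP3 and ISG15 the D controls lie below the A controls, and TRIM22 is higher in D-F at every dose.

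**Figure D4:**
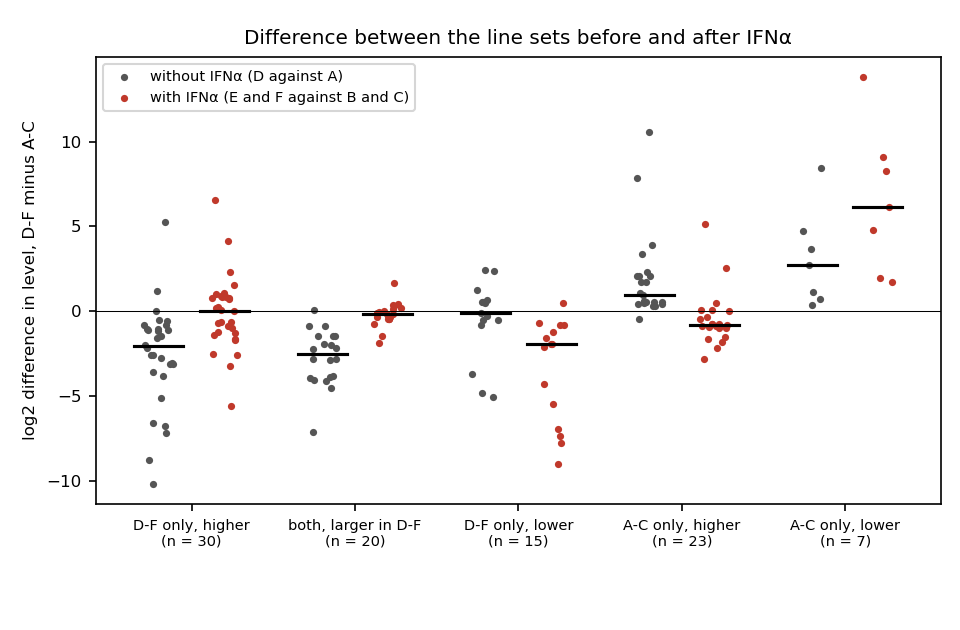
Log2 difference in level between line sets, D-F minus A-C, without IFNα (grey; D against A) and with IFNα (red; E and F against B and C), for 5 groups of genes; points are genes and bars are medians. The medians of the genes called higher in D-F only are -2.05 without and 0.04 with IFNα.

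The 23 genes called higher in A-C only included 5 protein-coding genes (ANAPC13, TCEAL9, HINT3, PI4K2B and THAP5), and their median log2 fold change was 1.45 in A-C and -0.23 in D-F. ANAPC13, a subunit of the anaphase-promoting complex, had TPM of 20.3 and 28.9 in A, 67.2 and 53.9 in B and 81.3 and 64.7 in C, and 19.7 and 19.9 in D, 23.1 and 16.3 in E and 18.0 and 24.1 in F. The treated A-C samples all lay above both controls, the D-F samples overlapped, and the difference was -1.70 ± 0.31 (edgeR adjusted p = 0.0316). MIR200CHG, the host transcript of microRNAs of the miR-200 family that maintain epithelial identity, was at 0 counts in both A samples and had TPM of 6.73 and 7.29 in B and 12.7 and 15.6 in C, at least 11.0-fold higher. In D-F it was present at every dose, with TPM of 8.94 and 12.6 in D, 7.70 and 14.3 in E and 12.4 and 14.4 in F, and its gene model overlaps MIR141 and MIR200C. TCEAL9, a transcription elongation factor-like protein, differed by -1.56 ± 0.23 (edgeR adjusted p = 0.0134). PI4K2B, a phosphatidylinositol 4-kinase, HINT3, THAP5 and the non-coding PRNCR1 differed on the log2 scale by -1.33, -1.35, -1.24 and -1.63. AL445647.1, AC096586.1 and HNRNPA3P3 had few reads in A, and 5 others were assembled loci.

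Of the 23, 8 were genes of the U1 small nuclear RNA, the spliceosome RNA that recognises the 5′ splice site. They are near-identical copies whose counts moved together, so that they hold about 1 measurement and the division between them is uncertain. Their summed TPM was 2727 and 2259 in A, 4802 and 3913 in B, 7271 and 5913 in C, 3802 and 3679 in D, 4071 and 3691 in E, and 3063 and 2764 in F. In A-C the samples of the 3 doses did not overlap, with C highest, and in D-F the F samples were lowest. RNU1-3, one of them, differed by -1.36 ± 0.18 (edgeR adjusted p = 0.00908). An assembled locus on chromosome 21 (GRCh38.p10, chr21:8434944-8447629, plus strand), which spans a 5.8S ribosomal RNA gene, had TPM of 573 and 525 in A, 1139 and 713 in B and 1757 and 1109 in C, and 449 and 681 in D, 499.9 and 556 in E and 469 and 549.8 in F. Libraries were made after ribosomal RNA depletion, and the part of leftover structural RNA in these values was not tested.

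The 7 genes called lower in A-C only were SCAND1, ICOSLG, MLXIPL, AC006504.1 and 3 assembled loci. ICOSLG, the ligand of the T cell costimulator ICOS, had TPM of 2.19 and 2.21 in A, 1.31 and 1.39 in B and 1.24 and 0.811 in C, and 3.28 and 3.90 in D, 5.90 and 3.47 in E and 5.39 and 3.66 in F. It fell in A-C, with a difference of 1.33 ± 0.23 (edgeR adjusted p = 0.0255). SCAND1, a SCAN domain protein, fell from TPM of 8.88 and 11.3 to 2.28 and 1.97 in C. MLXIPL, a glucose-sensing transcription factor, had TPM of 0.232 and 0.377 in A and 12.6 and 8.64 in D. Its counts were 6 and 6 in A, 1 and 1 in B and 0 and 0 in C. AC006504.1 had 8 and 6 counts in A and 0 in every B and C sample. On log2(TPM + 1) the differences were 0.02 for MLXIPL and 0.09 for AC006504.1 (limma adjusted p = 0.98 and 0.885). SCAND1 and MLXIPL lost the call in each of the 12 fits that left out 1 library.

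The 15 genes called lower in D-F only had a median log2 fold change of -1.82 there and 0.11 in A-C. ACADSB, a mitochondrial acyl-CoA dehydrogenase, had TPM of 12.3 and 12.6 in D, 6.52 and 6.58 in E and 6.44 and 7.54 in F, and 9.20 and 9.04 in A, 8.06 and 6.86 in B and 7.41 and 8.63 in C. TGFB2, the growth factor of the TGF-β family, had TPM of 13.7 and 15.3 in D, 7.79 and 11.2 in E and 8.19 and 6.97 in F, and 8.54 and 9.66 in A, 9.38 and 10.2 in B and 9.53 and 9.66 in C. Every treated D-F sample lay below both D controls for both genes. In A-C the TGFB2 samples overlapped, and ACADSB was lower in TPM with IFNα while its log2 fold change from counts was 0.06. The differences were -1.75 ± 0.21 for ACADSB (edgeR adjusted p = 0.00636; on log2(TPM + 1) it was -0.58, limma adjusted p = 0.228) and -1.19 ± 0.17 for TGFB2 (edgeR adjusted p = 0.012). ARG2, the mitochondrial arginase, and DDA1, a subunit of DDB1-type ubiquitin ligases, differed by -1.54 and -1.48 on the log2 scale. PADI3, a peptidylarginine deiminase of hair follicle and epidermis, was lower in D-F than in A-C at every dose, with TPM of 0.861 and 0.868 in D, 0.256 and 0.0619 in E and 0.0947 and 0.0923 in F against 21.4 and 23.9 in A. PTGS1, the constitutive cyclooxygenase, was likewise low in D-F, and CLCA2, a chloride channel regulator of squamous epithelium, differed by -1.85. LINC01116 was detected in D and at 0 counts in E and F, at least 1.33-fold lower. PCDHGA8 overlaps 25 genes of the protocadherin gamma cluster, so its counts are uncertain, and the others were SYT16, LINC01963, AC012513.3, AC145207.5 and 2 assembled loci.

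The locus called in opposite directions was an assembled transcript on chromosome 9 (GRCh38.p10, chr9:64365735-64367569, plus strand). Its TPM was 0.252 and 0.389 in A and 0 in every B and C sample, and 20.5 and 14.0 in D, 42.5 and 54.0 in E and 35.5 and 34.9 in F. The level in A was under 1 TPM, so the fall in A-C rests on few counts. By edgeR 0 annotated genes were called in opposite directions, against 16 genes in all with unadjusted p-values and 2 with DESeq2.

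**Figure D5:**
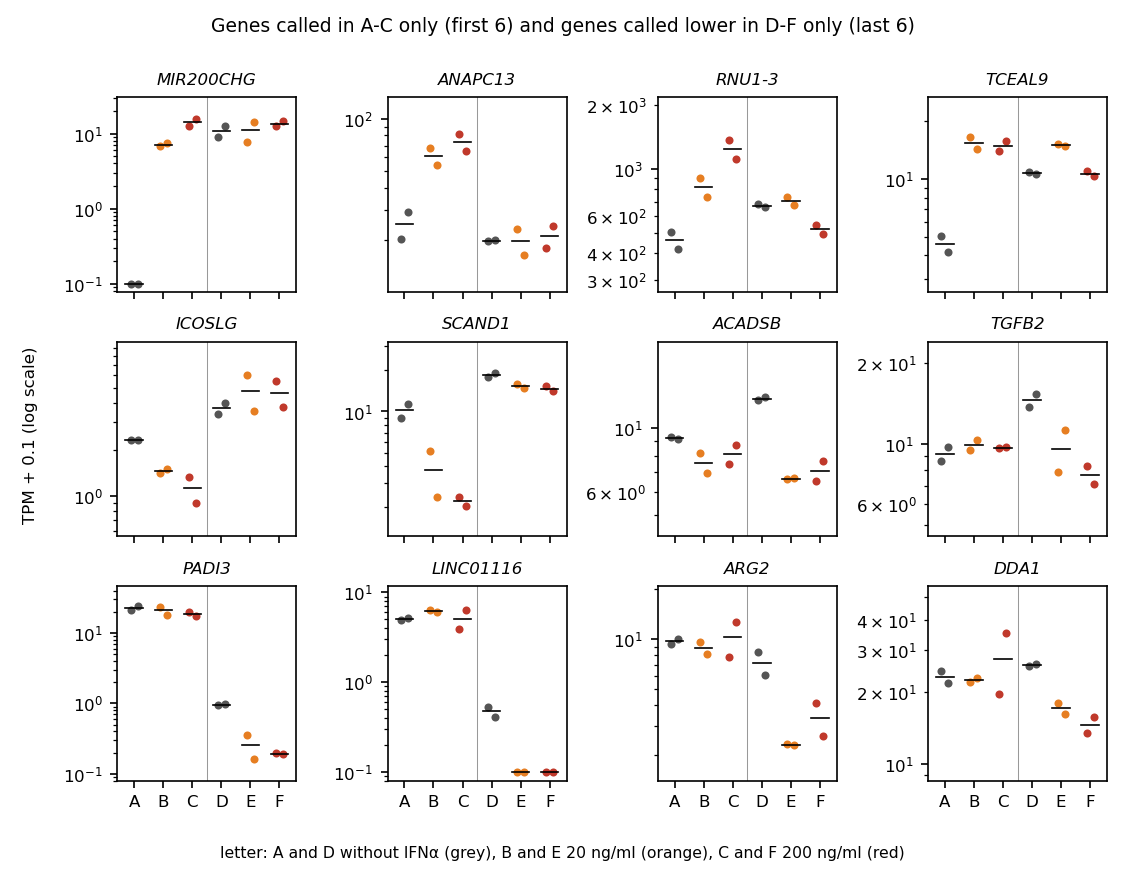
TPM + 0.1 (log scale) of 6 genes called in A-C only (first 6 panels) and 6 genes called lower in D-F only (last 6 panels), by sample letter; points are samples and bars are means, coloured by dose. ANAPC13 and the U1 gene RNU1-3 rise from A to B and C, and ACADSB and TGFB2 lie lower in E and F than in D.

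The difference was tested at each dose against the same controls. The pooled contrast that chose the 76 genes is the mean of these 2 contrasts. Agreement of the 76 with it in direction or call is therefore largely built in. Of the genes called in D-F only in the pooled test, PARP12, C1S and IDO1 were also called higher in A-C at 200 ng/ml alone. At 200 ng/ml 199 genes (0.998% of those tested) were called and at 20 ng/ml 46 (0.231%). Of the 76 genes, 55 were called at 200 ng/ml and 20 at the lower dose. All 76 had the pooled direction at 200 ng/ml, and 75 did at 20 ng/ml. Of the 30 genes called higher in D-F only, 25 were called at 200 ng/ml and 13 at 20 ng/ml. RNU1-3 differed on the log2 scale by -1.89 at 200 ng/ml and -0.83 at 20 ng/ml, and CXCL8 by 1.76 and 1.65, and for neither gene was the step between the doses called as different. The step between the doses itself differed between line sets for 8 genes (0.0401% of those tested), among them 2 assembled loci of the 76.

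Gene lists that fit the tissue and treatment gave the wider pathway context. Over all genes tested, 1.61% were called higher in D-F, 0.988% higher and 0.271% lower in A-C, and 0.687% differed. The lists are short, so a list with 1 differing gene is not read as a result about its pathway. Of 89 interferon-stimulated genes tested, 78 were called higher in D-F and 66 in A-C, and the difference was called in 17, of which 16 had D-F minus A-C above 0 and 1, TRIM22, below 0. The median difference over the list was 0.62, against 0.03 over all genes tested. Of 29 antigen presentation genes, 8 were called higher in D-F and 1 in A-C, and 2 differed (HLA-B and NLRC5). Of 34 chemokines and cytokines, 11 were called higher in D-F and 3 in A-C, and 2 differed (CXCL8 and CXCL10), with a median difference of 0.86. Of 23 NF-κB targets and regulators, 1 was called higher in D-F and 1 lower in A-C, and 4 differed (TNFAIP3, ICAM1, CD83 and IRAK2), all with D-F minus A-C above 0, with a median difference of 0.56. Of 27 genes of interferon receptors and JAK-STAT signalling, 6 were called higher in D-F and 5 in A-C, and 2 differed (ISG15 and USP18), neither of them a receptor. In 26 keratinocyte genes KRT6B differed, in 45 EMT and matrix genes TGFB2 was among those that differed, and in 24 immediate early genes EGR1 and FOSL2 differed. CENPE of 30 mitotic genes and CYP51A1 of 33 sterol and fatty acid genes differed with D-F minus A-C below 0, and CEBPB of 25 stress response genes with it above 0. By edgeR 0 of 33 genes of DNA replication and G1/S differed, with 0 at an unadjusted p within 0.05 and 2-fold and 0 by DESeq2 or limma. The edgeR count was also 0 for 26 p53 targets (1 unadjusted, 0 by DESeq2), 23 hypoxia and glycolysis genes (2 unadjusted, 1 by DESeq2) and 29 cell death genes (2 unadjusted, 1 by DESeq2), and limma called 0 in these 3 lists.

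The 38 genes that differed but were called in neither line set moved by less than 2-fold or without passing the threshold in each. ICAM1, an adhesion molecule of leukocyte capture, had TPM of 32.2 and 26.9 in D, 50.1 and 41.0 in E and 50.2 and 52.7 in F, and 128 and 152 in A, 109 and 111 in B and 101 and 91.1 in C. It was higher with IFNα in D-F and lower in A-C, with log2 values of 0.72 (edgeR adjusted p = 0.00524) and -0.46 (edgeR adjusted p = 0.0473), and the difference was 1.17 ± 0.16 (edgeR adjusted p = 0.00921). At the 2-fold limit, IKBKE (1.002) and CD83 (1.003) were just inside, and NSUN5 and PDGFB (0.997 and 0.997) just outside.

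The values also depended on the scale. On log2(TPM + 1), limma called 39 of the 76 genes and put 36 in the same group, and for 26 of the 76 the difference was under 50% of the one from counts or of the other sign. That scale lowers the changes of genes at few TPM, but not all 26 were such genes. The assembled locus on chromosome 21, at TPM of 449 to 1757, differed by -2.37 from counts and by -1.13 on log2(TPM + 1). The cause of that gap was not tested. Among these 26 were LMO2, SERPINB9, IDO1, CYB5R2, GRIP2, UCN2 and FAM229A of the genes called higher in D-F only. PADI3, PTGS1, SYT16, LINC01116, PCDHGA8 and ACADSB were among those called lower in D-F only. Of the A-C genes, the 26 held MIR200CHG, AL445647.1, AC096586.1 and HNRNPA3P3 (called higher) and MLXIPL and AC006504.1 (called lower).

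The number of calls moved with single libraries. Against 137 genes with a called difference, 60 were called without sample A2, 84 without B1, 84 without D1 and 91 without F2. Of the 76 genes, 18 were called in all 12 fits that left out 1 library, and 22 kept the call without A2, 34 without D1 and 67 without C2. Of the 30 genes called higher in D-F only, 12 were called in all 12 fits: HLA-B, NLRC5, CTSS, PARP12, CFB, TNFAIP3, CXCL8, KRT6B, IFITM2, RARRES3, GJB2 and TMEM229B. Of the 15 called lower in D-F only, 4 were, and of the 23 called higher in A-C only, 1 was (MIR200CHG).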

How the data were processed

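RNA of 12 samples was sequenced by the authors after ribosomal RNA depletion with a strand-specific kit. Per gene, the authors deposited estimated counts (whole numbers, unscaled), and TPM and FPKM values, both already scaled by the authors for length and depth. The submitters' processing notes name Trimmomatic 0.36, HISAT2 2.1.0, StringTie 1.3.3b and GRCh38.p10, without their roles. Estimated counts of overlapping or near-identical genes depend on how reads were divided. FPKM values were not used.

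Letters were matched to doses by the sample titles, with the low dose of 20 ng/ml from the series' design text. All 12 samples, in 6 groups by letter, were fitted on the counts with edgeR 4.0.16 in R 4.3.3 (TMM, filterByExpr, quasi-likelihood test, Benjamini-Hochberg over 19944 genes, common biological coefficient of variation 0.196). The tested contrast was the mean of E and F minus D, less the mean of B and C minus A, on the log2 scale. A gene was called where its adjusted p-value was within 0.05 and its change 2-fold or more, and its group was set by the same limits within each line set. Counts of 10517448 to 16056734 per sample and 2 samples per letter limit the precision. A fold against samples at 3 counts or fewer is a lower bound and covers counting error only. TPM is shown per sample, and limma 3.58.1 used log2(TPM + 1) as an alternative. Other alternatives were DESeq2 1.42.0, RLE normalization, no filter on low counts, each dose alone, a replicate block, unadjusted p-values, no minimum fold and leaving out each library. In 12 draws simulated from these libraries, each with 200 changed genes among 19473 to 19530, edgeR called 161 to 179 genes. Of these, 153 to 170 were changed genes and 6 to 13 were not. Recovery was 57 to 76 of 100 at a log2 difference of 1.5 and 91 to 97 of 100 at 3. Changes were placed in E and F alone, in genes with higher mean counts, and no other response was simulated. Recovery was therefore not measured for genes with few counts. The 2 samples of each letter differed by more than counting noise (a chi-square of 10.6 to 14.8 per degree of freedom). This cannot tell separate cultures from separate libraries of 1 culture. No sample was left out as a repeat.

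The genes and the gene lists were chosen with earlier results of these data known. Genes named by rule were, in each group, the 6 with the largest difference among those with a mean TPM of at least 1 in a letter, and up to 6 called genes of each list, 50 in all. Other members, the 4 printed promoters and RNU1-3 were named after their values were seen. Some members are counted but not reported here by name. Promoter windows came from RefSeq (GRCh38.p14). Python 3.11.15, pandas 2.3.3, numpy 2.4.6 and matplotlib 3.10.9 were used for tables and figures.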

Additional observations from a re-analysis of the deposited data

Results flagged for a closer look

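Responses differed between the line sets for 76 genes with D-F minus A-C above 0 and 61 with it below 0 by the edgeR test of the difference. The step from 20 to 200 ng/ml differed between the line sets for 8 genes, with 741 at an unadjusted p under 0.05 and 2-fold and 54 called by DESeq2.

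Among 100 groups of 4 treated samples checked for the named genes, 7 held 1 sample apart from the other 3, where chance gives about 5. PRNCR1 had TPM of 3.67 in C1 against 2.73 to 2.82 in the other treated A-C samples. SCAND1 had 5.03 in B1 against 1.97 to 2.28, but its counts were 35 in B1 and 36 in B2, so B1 was not apart from B2 in counts. MLXIPL had 0.134 in B2 against 0 to 0.0153, with 1 count in B1 and 1 in B2. TNFAIP3 had 153 in C2 against 128 to 132. LINC01116 had 3.78 in C1 against 6.02 to 6.26. In D-F, PADI3 had 0.256 in E1 against 0.0619 to 0.0947, and ACADSB had 7.54 in F2 against 6.44 to 6.58.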

How the results depend on the processing

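Of genes that differed, those with D-F minus A-C above 0 are called plus and those below 0 minus. With RLE normalization 135 genes differed and 75 responded in 1 line set only. Without the filter on low counts these were 131 and 74, with 0 in opposite directions. With DESeq2 266 genes differed, 154 plus and 112 minus, with 150 in 1 line set only, 2 opposite, 323 at 200 ng/ml, 165 at 20 ng/ml and 54 for the dose step. At 200 ng/ml alone 124 were plus and 434 genes were called within A-C. At 20 ng/ml alone 46 differed (33 plus, 13 minus), 26 in 1 line set only, and 142 were called within A-C. With limma on TPM 116 differed, of which 65 were among the 137, with 39 minus and 0 opposite. Of the 76 genes it called 39 and put 36 in the same group, and 26 of the 50 named genes no longer passed. With unadjusted p-values 962 differed (515 and 447), 612 in 1 line set only, 16 opposite, 810 within A-C, 870 within D-F, 1253 at 200 ng/ml, 809 at 20 ng/ml and 741 for the dose step. With no minimum fold 322 differed (170 and 152), 238 in 1 line set only, 15 opposite, 843 within A-C, 1311 within D-F, 375 at 200 ng/ml and 74 at 20 ng/ml.

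Deviations of same-numbered samples correlated at -0.051 to 0.058, so no strong effect shared by same-numbered samples was seen. The labels do not say whether same-numbered samples were handled together, and these correlations cannot exclude it. With the replicate block 78 genes differed (45 plus, 33 minus), 44 in 1 line set only, 0 opposite, 69 at 200 ng/ml, 30 at 20 ng/ml and 0 for the dose step.

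Leaving out 1 library gave 60 to 189 genes with a difference (38 to 126 plus, 22 to 64 minus), lowest without A2 and highest without C1. It gave 35 to 114 genes in 1 line set only, 0 to 3 opposite, 161 to 339 within A-C, 279 to 406 within D-F, 78 to 345 at 200 ng/ml, 28 to 61 at 20 ng/ml and 0 to 61 for the dose step. Of the 50 named genes, FOSL2 reversed at 20 ng/ml alone (-0.0027) and LINC01285 with limma on TPM (-0.35), and the cause was not tested. With 2 samples per letter the precision of every call is limited.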

Other observations

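A few genes moved at 1 dose in 1 line set, by the contrast of the step from 20 to 200 ng/ml, which was chosen after seeing the data. FOSL2, an AP-1 subunit, had TPM of 44.3 and 38.8 in A, 45.2 and 50.2 in B and 14.1 and 10.7 in C, and 26.6 and 22.3 in D, 30.1 and 29.3 in E and 31.7 and 32.7 in F. FGFRL1, a decoy receptor of fibroblast growth factors, had TPM of 15.0 and 17.9 in A, 13.9 and 22.4 in B and 3.34 and 2.30 in C, against 13.5 to 18.3 in D-F. Both were lower in the C samples and in no other letter. GLO1, the methylglyoxal-detoxifying glyoxalase, had TPM of 137 and 113 in A, 44.5 and 44.2 in B and 120.2 and 118 in C, against 30.7 to 41.8 in D-F. C1GALT1C1, the chaperone of the core 1 O-glycan synthase, had TPM of 20.2 and 21.2 in D, 5.10 and 5.05 in E and 25.5 and 24.8 in F, against 13.2 to 24.5 in A-C. GLO1 was low in the B samples and C1GALT1C1 in the E samples, both at 20 ng/ml and not at 200 ng/ml. The log2 difference in the step, D-F minus A-C, was 2.26 ± 0.23 for FOSL2 (edgeR adjusted p = 0.0158), 2.51 ± 0.32 for FGFRL1 (edgeR adjusted p = 0.0439), -1.72 ± 0.16 for GLO1 (edgeR adjusted p = 0.0138) and 2.17 ± 0.27 for C1GALT1C1 (edgeR adjusted p = 0.0416). The calls are 8 of 19944 genes (0.0401%), and by edgeR none was called with the replicate block or without sample B2.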
